A study of Mus musculus with 15 samples.

Results

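Basement membrane RNAs other than collagens were described across sorted populations of a mouse neuromesodermal progenitor culture. The 10 genes were taken by name from the 56092 named genes of the deposited table: the laminin chains Lama1, Lama4, Lama5, Lamb1, Lamb2 and Lamc1, the nidogens Nid1 and Nid2, the perlecan gene Hspg2, and Sparc. They had been listed as genes high in parietal endoderm, the extraembryonic cell layer that lays down Reichert's membrane. No group in the labels carries that name, and only part of the list peaked with the markers of that layer. Of 12 parietal endoderm markers, 11 were highest in the same library. Lama1, Lamb1, Lamc1, Nid1, Nid2 and Sparc were also highest there, whereas Lama4, Lama5, Lamb2 and Hspg2 were highest elsewhere. This is a ranking alone. In that library Nid2 was only 1.41 times its next highest value, and Hspg2 and Lamb2 reached 0.797 and 0.895 times their highest values elsewhere.

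A basement membrane is a thin sheet of matrix under or around cells, built on a network of laminins and a network of type IV collagen. Each laminin is a trimer of an alpha, a beta and a gamma chain, joined inside the cell before secretion, so a cell can secrete a given laminin only if it makes all the chains of that trimer. Nidogens and perlecan bridge the laminin and collagen networks, and SPARC is a secreted protein that binds collagen. In the early embryo the laminin of alpha1, beta1 and gamma1 chains is the main form, and the laminin with the alpha5 chain is typical of epithelia. Parietal endoderm makes large amounts of these proteins.

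The cells were STR-KI mouse embryonic stem cells, which carry Sox2::mCherry/WT and Tbxt::GFP/WT reporters, so 1 allele of each gene marks neural (Sox2) or mesodermal (Tbxt, Brachyury) character and all 8 groups share this genotype. All groups passed through 48 h of 10 ng/mL FGF2 and 24 h of FGF2 with 5 µM CHIR (CHIRON99021, an activator of WNT signalling), after which double-positive cells were sorted as NMP (3 libraries). NMP cells grown for 48 h in FGF/CHIR were sorted by mCherry (Sox2 48 h, 2 libraries) or by GFP (Tbxt 48 h, 2 libraries). Growth of Sox2-derived cells for 7 d in either FGF or FGF/CHIR was followed by a sort for mCherry-positive or double-negative (DN) cells, giving FGF Sox2+ (2 libraries), FGF/CHIR Sox2+, FGF DN and FGF/CHIR DN (1 library each). The double-negative fraction of Tbxt-derived cells after 7 d in FGF/CHIR made up the Tbxt 7 d group (3 libraries). The abbreviation DN is kept for the Sox2-derived groups. The labels leave the later doses of FGF and CHIR unstated. They also do not say whether the 7 d began at the NMP sort or at the 48 h sort. A step from 48 h to 7 d is therefore a difference between groups. A single cell line was used, and the labels do not say whether the libraries of a group came from separate cultures. The p-values therefore measure the spread between these libraries, which may be technical.

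Values are counts per 1000000 (CPM), and a level is a group mean ± SD, or the value of a single library. Depth was estimated from the step between low values, which is worth 1 read. It was 3.43 M to 9.88 M reads (M is 1000000) in 14 libraries, where 3 reads, used as the detection floor, stood at 0.304 to 0.874 CPM. FGF Sox2+ replicate 2 was shallow, at 0.799 M reads and a floor of 3.76 CPM. Tbxt 7 d replicate 1 stood apart from the other Tbxt 7 d libraries, with an SD of the log2 difference over genes of 0.686 and 0.694 against 0.329 between replicates 2 and 3. Changes are log2 fold changes ± SE on the log2(CPM + 1) scale from a limma fit of all 15 libraries, and "higher", "lower", "rose" and "fell" are used for an adjusted p under 0.05. This scale understates changes of genes with few reads. Groups with 1 library took their spread from the replicated groups, so their differences have no replicate check of their own and compare those libraries. CPM are not divided by transcript length, so levels are compared between groups and never between genes. In bulk libraries, fewer cells of a type and less RNA per cell cannot be told apart. Of the 10 genes, 9 reached 5 CPM in at least 2 libraries and were tested. Lama4 reached it only in Tbxt 7 d replicate 1.

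The bases directly upstream of a gene are where transcription factors and general promoter motifs are usually sought. RefSeq promoters on GRCm38.p6, an earlier build than the GRCm39 used by the authors, were found for 6 of the 10 genes. They are shown because they include a gene for each group in which a tested gene peaked: Sparc, Lamb1 and Nid1 (FGF DN), Hspg2 (FGF/CHIR DN), Lamb2 (Tbxt 7 d) and Lama5 (NMP). Each run reads 5′ to 3′ on the strand of the gene, covers up to 250 bases upstream of its annotated start, and lies at chr11:55420081-55420330 on the minus strand (Sparc), chr12:31265043-31265145 on the plus strand (Lamb1), chr13:13437352-13437601 on the plus strand (Nid1), chr4:137468553-137468750 on the plus strand (Hspg2), chr9:108479612-108479846 on the plus strand (Lamb2) and chr2:180225905-180226109 on the minus strand (Lama5). Capitals mark matches, on either strand, to a GC box (GGGCGG) or to GATA followed by G (GATAG), and GATAA and the SOX core ATTGT were searched in the same way.
Sparc: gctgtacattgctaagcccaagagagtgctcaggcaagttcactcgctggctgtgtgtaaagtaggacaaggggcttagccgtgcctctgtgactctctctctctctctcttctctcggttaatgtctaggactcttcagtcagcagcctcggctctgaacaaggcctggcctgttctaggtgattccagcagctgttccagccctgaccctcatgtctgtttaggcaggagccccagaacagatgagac
Lamb1: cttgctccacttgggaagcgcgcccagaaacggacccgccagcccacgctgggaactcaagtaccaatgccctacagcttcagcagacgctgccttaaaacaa
Nid1: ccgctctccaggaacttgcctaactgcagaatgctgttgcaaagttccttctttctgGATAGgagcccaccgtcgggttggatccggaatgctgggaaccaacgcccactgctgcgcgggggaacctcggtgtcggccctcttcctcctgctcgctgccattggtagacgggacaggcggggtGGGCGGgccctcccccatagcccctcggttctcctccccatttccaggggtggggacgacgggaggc
Hspg2: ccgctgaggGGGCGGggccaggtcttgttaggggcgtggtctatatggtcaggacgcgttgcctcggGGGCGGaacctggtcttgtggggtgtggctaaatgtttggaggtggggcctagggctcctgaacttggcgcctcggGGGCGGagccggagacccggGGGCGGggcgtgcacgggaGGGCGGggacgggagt
Lamb2: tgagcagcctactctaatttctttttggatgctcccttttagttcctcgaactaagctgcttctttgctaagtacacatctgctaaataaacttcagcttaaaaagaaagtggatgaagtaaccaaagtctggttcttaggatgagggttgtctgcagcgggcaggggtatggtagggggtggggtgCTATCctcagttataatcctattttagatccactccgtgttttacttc
Lama5: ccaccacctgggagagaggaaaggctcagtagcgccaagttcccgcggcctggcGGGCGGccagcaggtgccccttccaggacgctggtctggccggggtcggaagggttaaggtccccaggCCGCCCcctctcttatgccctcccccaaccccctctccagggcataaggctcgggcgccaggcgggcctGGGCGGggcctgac
The Lama5 run held 3 GC boxes in 205 bases, a length at which 25.6% of the 32851 promoters in the table held at least 1. Hspg2 held 5 GC boxes in 198 bases, where the share over all promoters was 24.3%, and Lamb2 held 1 GATAG in 235 bases, where it was 19.7%. Nid1 held 1 GC box and 1 GATAG in 250 bases, where the shares over all promoters were 32.7% and 20.6%. The Sparc run of 250 bases and the Lamb1 run of 103 bases held none of the 4 motifs. At 250 bases 22.6% of promoters held GATAA and 27.7% held ATTGT. At 103 bases the shares were 10.8% for the GC box, 11.4% for GATAA, 9.66% for GATAG and 13.4% for ATTGT. The GATA motifs share their leading letters, and no match can be both. A match describes the letters alone, and the absence of a match says nothing of a factor.

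Lama1, the alpha chain of the early embryonic laminin, had the widest range of group means of the 10 genes. It stood at 2.98, 3.38 and 4.64 CPM in NMP, 18.7 and 15.3 CPM in Sox2 48 h, 39.7 and 32.1 CPM in Tbxt 48 h, and 9.77 and 16.3 CPM in FGF Sox2+. FGF/CHIR Sox2+ held 21.0 CPM, FGF DN 1049.8 CPM, FGF/CHIR DN 138 CPM, and the Tbxt 7 d libraries 8.74, 11.5 and 11.3 CPM. The FGF DN level was 7.63 times that of FGF/CHIR DN, the next highest, and 286 times the NMP mean. Below the DN libraries, Tbxt 48 h stood above every other library, NMP lay below every other library, and the ranges of Sox2 48 h and FGF Sox2+, and of FGF Sox2+ and Tbxt 7 d, overlapped.

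Lama5, the alpha chain typical of epithelia, was highest in NMP, where Lama1 was lowest. It stood at 46.1, 70.4 and 50.0 CPM in NMP, 37.1 and 26.3 CPM in Sox2 48 h, 13.0 and 10.3 CPM in Tbxt 48 h, and 33.5 and 21.3 CPM in FGF Sox2+. FGF/CHIR Sox2+ held 22.4 CPM, FGF DN 22.7 CPM, FGF/CHIR DN 13.5 CPM, and the Tbxt 7 d libraries 2.04, 0.198 and 0 CPM. NMP did not overlap any other group, Tbxt 7 d lay below all others, and FGF DN was within the range of FGF Sox2+. Over the 15 libraries r between Lama5 and Lama1 was -0.05, and both were low in Tbxt 7 d. Lama4, an alpha chain of vessels and mesenchyme, stood at 10.8 CPM in Tbxt 7 d replicate 1, 1.39 and 3.16 CPM in the other Tbxt 7 d libraries, and at most 1.83 CPM in all the others. In replicate 1, Acta2, a smooth muscle marker, stood at 132 CPM, against 7.57 and 12.2 CPM in replicates 2 and 3, and the summed smooth muscle list ranged from 8.36 to 207 CPM over the 3 libraries. The part of such cells in the Lama4 value was not tested.

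Lamb1, the beta chain of the alpha1 laminin, was present in every library. It stood at 68.7, 91.0 and 93.4 CPM in NMP, 83.8 and 74.1 CPM in Sox2 48 h, 124 and 145 CPM in Tbxt 48 h, 59.7 and 58.8 CPM in FGF Sox2+, and 105, 131 and 181 CPM in Tbxt 7 d. FGF/CHIR Sox2+ held 104 CPM, FGF DN 2282 CPM and FGF/CHIR DN 340.1 CPM. Outside the 2 DN libraries the group means stayed between 59.3 and 139 CPM. Lamc1, the gamma chain shared by most laminins, had group means of 35.5 to 69.9 CPM outside the DN libraries. It stood at 47.1, 64.3 and 59.9 CPM in NMP, 64.9 and 59.0 CPM in Sox2 48 h, 63.5 and 64.1 CPM in Tbxt 48 h, 51.0 and 88.9 CPM in FGF Sox2+, and 57.9 CPM in FGF/CHIR Sox2+. FGF DN held 2277 CPM, FGF/CHIR DN 155 CPM, and the Tbxt 7 d libraries 48.9, 28.9 and 28.7 CPM. The ranges of NMP, Sox2 48 h, Tbxt 48 h and FGF Sox2+ overlapped, with Tbxt 7 d replicate 1 inside the NMP range and replicates 2 and 3 below all other libraries.

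Lamb2, a beta chain of mature basement membranes such as those of muscle and kidney, was highest in Tbxt 7 d, at 19.5, 22.4 and 21.9 CPM. FGF DN reached 20.02 CPM, within that range, and FGF/CHIR DN 10.7 CPM. The remaining levels were 4.09 ± 0.0839 CPM in NMP (SD, n = 3), 6.88 ± 1.33 in Sox2 48 h, 4.86 ± 0.429 in Tbxt 48 h and 9.89 ± 0.176 in FGF Sox2+ (SD, n = 2 each), and 6.68 CPM in FGF/CHIR Sox2+.

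The nidogens, which link laminin to collagen IV, differed from each other. Nid1 stood at 3.63, 6.91 and 4.41 CPM in NMP, 2.78 and 2.51 CPM in Sox2 48 h, 2.23 and 2.53 CPM in Tbxt 48 h, 15.5 and 26.3 CPM in FGF Sox2+, and 131, 123 and 139.8 CPM in Tbxt 7 d. FGF/CHIR Sox2+ held 5.55 CPM, FGF DN 466 CPM and FGF/CHIR DN 80.7 CPM. Nid1 therefore had its high values in the 5 double-negative libraries, and Sox2 48 h and Tbxt 48 h overlapped at the bottom of the order. Nid2 ranged only from 74.5 to 200.2 CPM over the 15 libraries, with its highest value in FGF DN and its lowest in Tbxt 7 d replicate 1. Its group means differed by 2.19 times at most, against 196 times for Nid1.

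Hspg2 encodes perlecan, a heparan sulfate proteoglycan. It stood at 26.0 ± 4.08 CPM in NMP (SD, n = 3), 54.4 ± 8.39 in Sox2 48 h, 33.1 ± 14.3 in Tbxt 48 h and 66.7 ± 20.02 in FGF Sox2+ (SD, n = 2 each). FGF/CHIR Sox2+ held 69.7 CPM, FGF DN 212 CPM, FGF/CHIR DN 266 CPM, and the Tbxt 7 d libraries 126, 59.6 and 71.9 CPM. It was the only one of the 10 genes that was highest in FGF/CHIR DN. Sparc stood at 45.4, 54.5 and 54.0 CPM in NMP, 145 and 114 CPM in Sox2 48 h, 65.0 and 48.2 CPM in Tbxt 48 h, and 331 and 373 CPM in FGF Sox2+. FGF/CHIR Sox2+ held 148 CPM, FGF DN 8327 CPM, FGF/CHIR DN 1945 CPM, and the Tbxt 7 d libraries 1211, 722 and 732 CPM. NMP and Tbxt 48 h overlapped, and every other pair of neighbouring groups in the order of Sparc levels was separate, although FGF/CHIR Sox2+ lay close to Sox2 48 h replicate 1. The 10 genes together took 1.49% of all CPM in FGF DN, 0.307% in FGF/CHIR DN, 0.124 to 0.174% in Tbxt 7 d, and 0.0348 to 0.0464% in NMP.

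**Figure D1:**
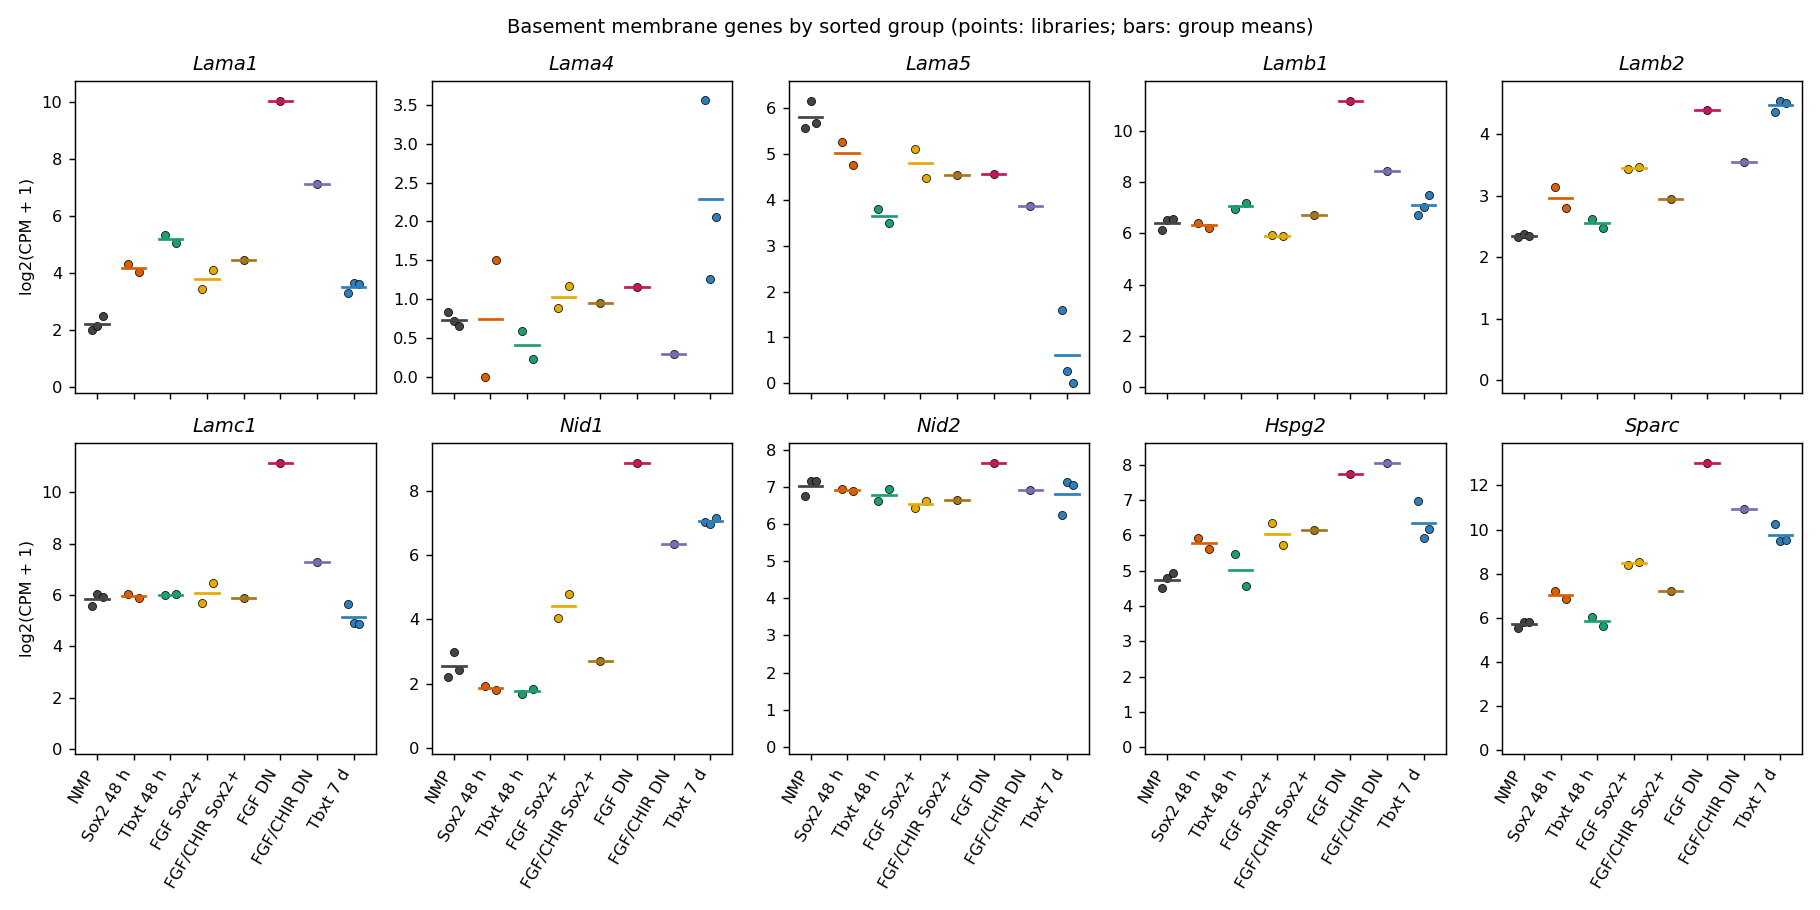
Levels of the 10 basement membrane genes in the 15 libraries, as log2(CPM + 1) on the vertical axes, by sorted group on the horizontal axes; points are libraries, bars are group means, and the vertical scale differs between panels. Lama1, Lamb1, Lamc1, Nid1, Nid2 and Sparc peak in the FGF DN library, Hspg2 peaks in FGF/CHIR DN, Lama4 and Lamb2 in Tbxt 7 d, and Lama5 in NMP.

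The question at 48 h was which RNAs moved as Sox2-positive and Tbxt-positive cells separated. In Sox2 48 h cells against NMP, Lama1 rose by 1.96 ± 0.24 (adjusted p = 2.84e-04) and Sparc by 1.31 ± 0.22 (adjusted p = 0.00247). These were 2 of 9 tested genes higher and 0 lower, in a comparison in which 2.65% of all tested genes were higher and 5.27% lower. With array weights Hspg2 (0.85), Lamb2 (0.63), Lama5 (-0.67) and Nid1 (-0.58) also passed. Hspg2 and Lama5 passed too in a fit of the compared groups alone, and Lamb2 with quantile normalization. Hspg2 also passed without Tbxt 7 d replicate 1. In Tbxt 48 h cells against NMP, 2 of 9 were higher and 2 lower, against 7.82% and 10.5% of all genes. Lama1 rose by 2.99 ± 0.24 (adjusted p = 8.57e-06) and Lamb1 by 0.68 ± 0.20 (adjusted p = 0.0357), while Lama5 fell by 2.15 ± 0.41 on the log2 scale (adjusted p = 0.00363) and Nid1 fell by 0.79 ± 0.25 (adjusted p = 0.0457). The Tbxt-positive cells thus held more RNA of alpha1 and beta1 chains and less of the alpha5 chain than NMP. The Lama1 call held in all alternatives run. Nid2 passed only with array weights (-0.36, adjusted p = 0.0499). The call of Lama5 was lost with a pseudocount of 0.25 (-2.22, adjusted p = 0.0607) and without Tbxt 48 h replicate 2 (-1.99, adjusted p = 0.0591). That of Lamb1 was lost without NMP replicate 1 (0.54) or 3 (0.75) or Tbxt 48 h replicate 1 (0.79) or 2 (0.56), with adjusted p between 0.0532 and 0.283, and that of Nid1 without any of 8 libraries in turn, with values from -0.85 to -0.57. Both calls were also lost without a filter (adjusted p = 0.0962 for Lamb1 and 0.107 for Nid1) and with quantile normalization (0.0753 and 0.336), and that of Nid1 with a pseudocount of 4 (adjusted p = 0.121).

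Against each other, the 48 h populations differed in 2 of 9 genes. Lama1 was higher in Tbxt 48 h, by 1.03 ± 0.26 (adjusted p = 0.0457), and Sparc was lower, by -1.19 ± 0.24 (adjusted p = 0.0143). Over all genes 2.05% were higher and 1.85% lower. Both calls rested on few libraries: without Sox2 48 h replicate 1 or 2, or Tbxt 48 h replicate 2, neither passed (Lama1 0.88 to 1.18 over its leave-one-out values, Sparc -1.40 to -0.97). Lama1 also failed without NMP replicate 2 or 3, Tbxt 48 h replicate 1, or Tbxt 7 d replicate 2 or 3, and with a pseudocount of 0.25, no filter or quantile normalization (adjusted p = 0.0575, 0.113 and 0.0836). Sparc failed without a filter (adjusted p = 0.0569). Without Tbxt 7 d replicate 1, which enters only through the shared spread, Lama5 (-1.36, adjusted p = 0.00857) and Lamb1 (0.76, adjusted p = 0.0242) also passed. Both passed too with array weights (adjusted p = 0.0144 and 0.0234) and in a fit of the compared groups alone (3.59e-04 and 0.00599). Lama5 passed with a pseudocount of 4 (adjusted p = 0.0326) and Lamb1 without Tbxt 7 d replicate 3 (adjusted p = 0.0411). Both 48 h comparisons with NMP use the same NMP libraries, and the comparisons at 7 d share libraries likewise.

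Between 48 h and 7 d, Nid1 and Sparc rose both from Sox2 48 h to FGF Sox2+ and from Tbxt 48 h to Tbxt 7 d. From Sox2 48 h to FGF Sox2+, a step that also changes the medium from FGF/CHIR to FGF, Nid1 rose by 2.54 ± 0.28 (adjusted p = 5.53e-05) and Sparc by 1.44 ± 0.24 (adjusted p = 0.00102). No other gene passed and 0 were lower, with 18.2% of all genes higher and 6.51% lower. None of the laminin chains passed in this step, and their values lay between -0.40 for Lamb1 and 0.48 for Lamb2. The single FGF/CHIR Sox2+ library kept the medium of Sox2 48 h. It held 5.55 CPM of Nid1 and 148 CPM of Sparc, against 2.51 to 2.78 and 114 to 145 CPM in Sox2 48 h. That difference was not tested. Neural progenitor markers, 8 genes, summed to 299 to 312 CPM in Sox2 48 h and 1149 to 1576 CPM in FGF Sox2+, neuron markers, 6 genes, to 20.4 to 33.9 and 187 to 660 CPM, and the epithelial list, 7 genes, to 42.9 to 56.3 and 322 to 501 CPM. Parietal endoderm markers summed to 86.6 to 105 CPM and 139 to 157 CPM. In this step 6 of 6 neuron markers were higher, as were 4 of the 11 tested parietal endoderm markers, with 1 lower. Dcx, among the 6, stood at 11.5 and 43.8 CPM in FGF Sox2+ and at most 2.37 CPM elsewhere. It entered the test only through that group, so its call carries no information. The part of these cell types in the Nid1 and Sparc values was not tested.

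From Tbxt 48 h to Tbxt 7 d, 4 of 9 genes were higher and 3 lower, against 30.7% and 23.5% of all genes. Nid1 rose by 5.29 ± 0.25 (adjusted p = 1.35e-08), Sparc by 3.92 ± 0.22 (adjusted p = 4.03e-08), Lamb2 by 1.92 ± 0.20 (adjusted p = 6.14e-06) and Hspg2 by 1.34 ± 0.33 (adjusted p = 0.00473). Lama5 fell by 3.03 ± 0.41, Lama1 by 1.68 ± 0.24 and Lamc1 by 0.87 ± 0.26 on the log2 scale, with adjusted p of 6.24e-05, 7.53e-05 and 0.0118. In Tbxt 7 d replicates 2 and 3 Lama5 lay under the floor, so its size depended on the settings. Over the alternatives other than leave-one-out the Lama5 value ranged from -4.22 to -1.74. Lamb1 (0.02 ± 0.20) and Nid2 (0.02 ± 0.24) did not pass. Lama1 had been higher in Tbxt 48 h than in NMP and was lower again at 7 d, whereas Lama5 was lower at both steps. The Hspg2 call was lost without Tbxt 48 h replicate 2 (0.90, adjusted p = 0.0764) and that of Lamc1 without Tbxt 48 h replicate 1 (-0.88, adjusted p = 0.0556) or 2 (-0.87, adjusted p = 0.0645). Without Tbxt 7 d replicate 1 the same number, 7 genes, passed. The mesenchyme markers, a list of 10 genes, summed to 6735 to 8253 CPM in Tbxt 7 d and 159 to 167 CPM in Tbxt 48 h, and their part in these changes was not tested.

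**Figure D2:**
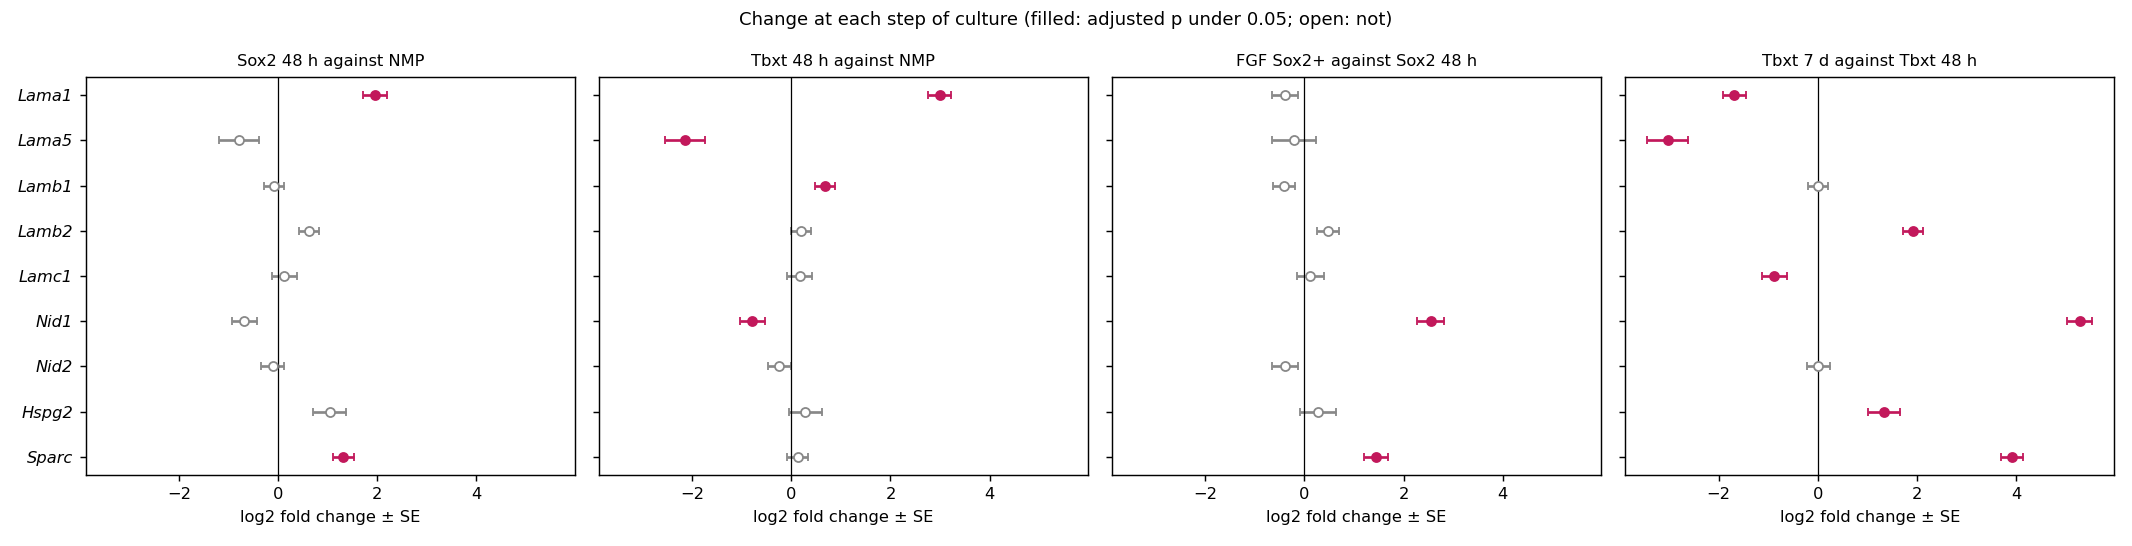
Log2 fold change ± SE of the 9 tested genes (horizontal axes, the same scale in all panels) at 4 steps of the culture; filled points passed an adjusted p of 0.05 and open points did not. Lama1 lies to the right at both 48 h steps and to the left from Tbxt 48 h to Tbxt 7 d, and Nid1 and Sparc lie to the right at both steps from 48 h to 7 d.

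The sort of Sox2-derived 7 d cells allowed DN and Sox2+ cells to be compared in each medium. Averaged over both media, 7 of 9 genes were higher in DN cells and 0 lower, where 7.12% of all genes were higher and 6.99% lower. The median of the 9 was 3.23, against -0.10 over all genes. The genes had been listed as high in parietal endoderm and chosen with earlier results of these data known. An excess over all genes, here or in the other comparisons, therefore describes the list and tests nothing. Lama1 was higher by 4.46 ± 0.24 (adjusted p = 3.66e-07), Sparc by 4.14 ± 0.22 (adjusted p = 3.66e-07), Nid1 by 4.05 ± 0.26 (adjusted p = 7.44e-07), Lamb1 by 3.47 ± 0.21 (adjusted p = 6.02e-07), Lamc1 by 3.23 ± 0.26 (adjusted p = 6.09e-06), Hspg2 by 1.80 ± 0.34 (adjusted p = 0.00453) and Lamb2 by 0.78 ± 0.21 (adjusted p = 0.0242). All chains of the alpha1, beta1, gamma1 laminin were thus among the higher genes, together with a nidogen, perlecan and SPARC. Lama5 (-0.46 ± 0.42, adjusted p = 0.499) and Nid2 (0.70 ± 0.24, adjusted p = 0.0726) did not pass, and Nid2 passed without Tbxt 7 d replicate 1 (adjusted p = 0.00692), with median-of-ratios scaling (0.82, adjusted p = 0.0423) and with array weights (adjusted p = 0.00262). The Lamb2 call was lost with a filter at 20 CPM (adjusted p = 0.05002).

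The media differed in the size of this gap for the 3 chains of that laminin. In FGF, the DN level was 80.6 times the Sox2+ mean for Lama1, 38.5 times for Lamb1 and 32.6 times for Lamc1. In FGF/CHIR the ratios were 6.56, 3.28 and 2.67. The difference of the differences was -3.61 ± 0.49 for Lama1, -3.54 ± 0.42 for Lamb1 and -3.65 ± 0.53 for Lamc1 (adjusted p = 0.00275, 0.00164 and 0.00358), and 3 of 9 genes were lower and 0 higher where 0.749% of all genes were lower and 1.69% higher. For the genes that did not pass this test the ratios lay closer: 23.7 in FGF and 13.2 in FGF/CHIR for Sparc (-0.85 ± 0.44), 22.3 and 14.5 for Nid1 (-0.82 ± 0.52), and 3.18 and 3.82 for Hspg2 (0.23 ± 0.68). These values rest on 1 library each for FGF DN, FGF/CHIR DN and FGF/CHIR Sox2+. Counting error was small beside them: the 95% Wilson intervals were 1021 to 1079 CPM for Lama1 in FGF DN and 127 to 149 CPM in FGF/CHIR DN, and they leave out the variation between cultures.

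Averaged over both gates, cells in FGF/CHIR were lower than cells in FGF in 6 of 9 genes and higher in 0, against 7.86% and 5.94% of all genes. Nid1 was lower by -2.11 ± 0.26, Lamc1 by -2.04 ± 0.26, Sparc by -1.67 ± 0.22, Lama1 by -1.12 ± 0.24, Lamb1 by -0.97 ± 0.21 and Lamb2 by -0.67 ± 0.21. Their adjusted p lay between 1.93e-04 (Nid1) and 0.0467 (Lamb2). For Lama1 and Lamb1 the average hid opposite orders within the gates, since FGF/CHIR Sox2+ held more than the FGF Sox2+ mean (21.0 against 13.0 CPM for Lama1, and 104 against 59.3 CPM for Lamb1) while FGF/CHIR DN held less than FGF DN. For Lamc1, FGF/CHIR Sox2+ (57.9 CPM) lay between the FGF Sox2+ libraries (51.0 and 88.9 CPM). Its lower average came mainly from the single DN libraries, at 155 CPM in FGF/CHIR and 2277 CPM in FGF. The Lamb2 call was lost without any of 10 libraries in turn, with values of -0.68 to -0.66, and with a pseudocount of 0.25, a filter at 20 CPM or quantile normalization (adjusted p = 0.0571, 0.09 and 0.0665). Hspg2 (0.21 ± 0.34), Nid2 (-0.31 ± 0.24) and Lama5 (-0.48 ± 0.42) did not pass.

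**Figure D3:**
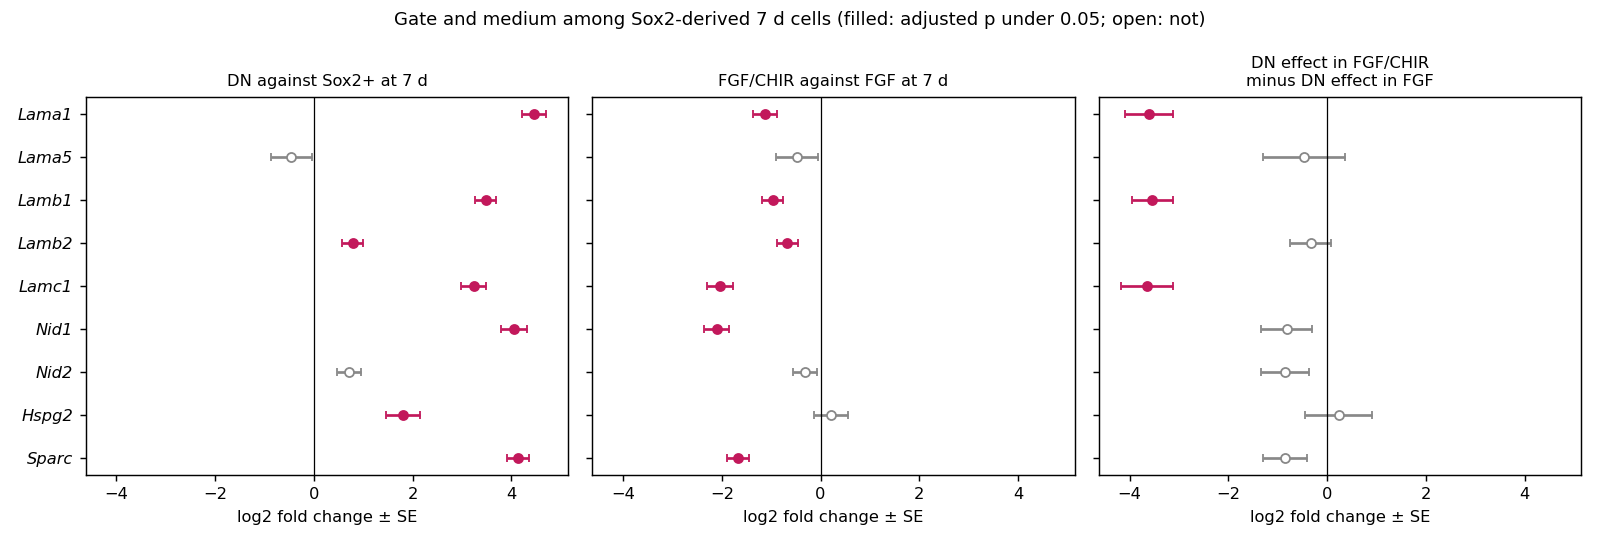
Log2 fold change ± SE of the 9 tested genes (horizontal axes, the same scale in all panels) for DN against Sox2+ cells, FGF/CHIR against FGF, and the difference of the DN effects between media; filled points passed an adjusted p of 0.05. In the right panel Lama1, Lamb1 and Lamc1 lie between -3.65 and -3.54, away from the other 6 genes.

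Among 12 parietal endoderm markers, 11 were highest in FGF DN, as were Lama1, Lamb1, Lamc1, Nid1, Nid2 and Sparc. The exception, Stra6, stood at 43.5 CPM there, 175 CPM in FGF/CHIR Sox2+ and 16.0 to 184 CPM in Tbxt 7 d. The parietal endoderm list, 12 genes, summed to 3234 CPM in FGF DN and 673 CPM in FGF/CHIR DN with 12 of 12 genes above the floor, to 447 to 591 CPM in Tbxt 7 d with 8 of 12, to 139 to 157 CPM in FGF Sox2+, and to 226 CPM in FGF/CHIR Sox2+. In NMP it summed to 256 to 360 CPM, of which Fst, an inhibitor of activin, made up 178 to 277 CPM, and at 48 h to 61.8 to 105 CPM. Its transcription factors Gata6, Sox17, Gata4 and Sox7 stood at 460, 228, 205 and 174 CPM in FGF DN and at 99.0, 37.9, 33.6 and 22.6 CPM in FGF/CHIR DN. Sox17, Sox7 and Thbd were at 0 in all 3 Tbxt 7 d libraries. Thbd, which encodes thrombomodulin, stood at 277 CPM in FGF DN and 1.37 CPM in FGF/CHIR DN.

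Visceral endoderm markers, 10 genes, summed to 399 CPM in FGF DN with 7 of 10 above the floor and to 293 CPM in FGF/CHIR DN with 5 of 10, and to 1.46 to 11.3 CPM in all other libraries. Ttr and Foxa2 led in FGF DN (147 and 120 CPM), and Cubn and Amn, which encode an endocytic receptor complex, in FGF/CHIR DN (164 and 110 CPM). Apob and Apoa4 were at 0 in FGF DN, and Afp, Apoa1 and Apob in FGF/CHIR DN. Mesenchyme markers summed to 253 CPM in FGF DN and 2410 CPM in FGF/CHIR DN. The epithelial list, with Krt8 at 461 CPM and Krt18 at 316 CPM in FGF DN, summed to 1108 CPM there, 404 CPM in FGF/CHIR DN, 322 to 501 CPM in FGF Sox2+, 56.3 CPM in FGF/CHIR Sox2+ and 7.64 to 14.3 CPM in Tbxt 7 d. Endothelial markers, 6 genes, summed to 61.9 CPM in FGF DN with 5 of 6 above the floor, 2.74 CPM in FGF/CHIR DN and at most 8.76 CPM elsewhere. Cdh5 (43.5 CPM) and Tek (11.8 CPM) made up most of the FGF DN sum. Pecam1 and Emcn, at 0.825 CPM each, lay near the floor of 0.619 CPM there. Smooth muscle markers, 5 genes, summed to 381 CPM in FGF DN and 188 CPM in FGF/CHIR DN, each with 4 of 5 above the floor, and to 30.4 to 61.7 CPM in FGF Sox2+. Pluripotent cell markers, 5 genes, summed to 192 CPM in FGF DN and 345 CPM in FGF/CHIR DN, where Dppa5a made up 264 CPM, to 45.4 to 185 CPM in FGF Sox2+ and to 5.16 CPM in FGF/CHIR Sox2+. The part of each of these cell types in the DN values was not tested.

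**Figure D4:**
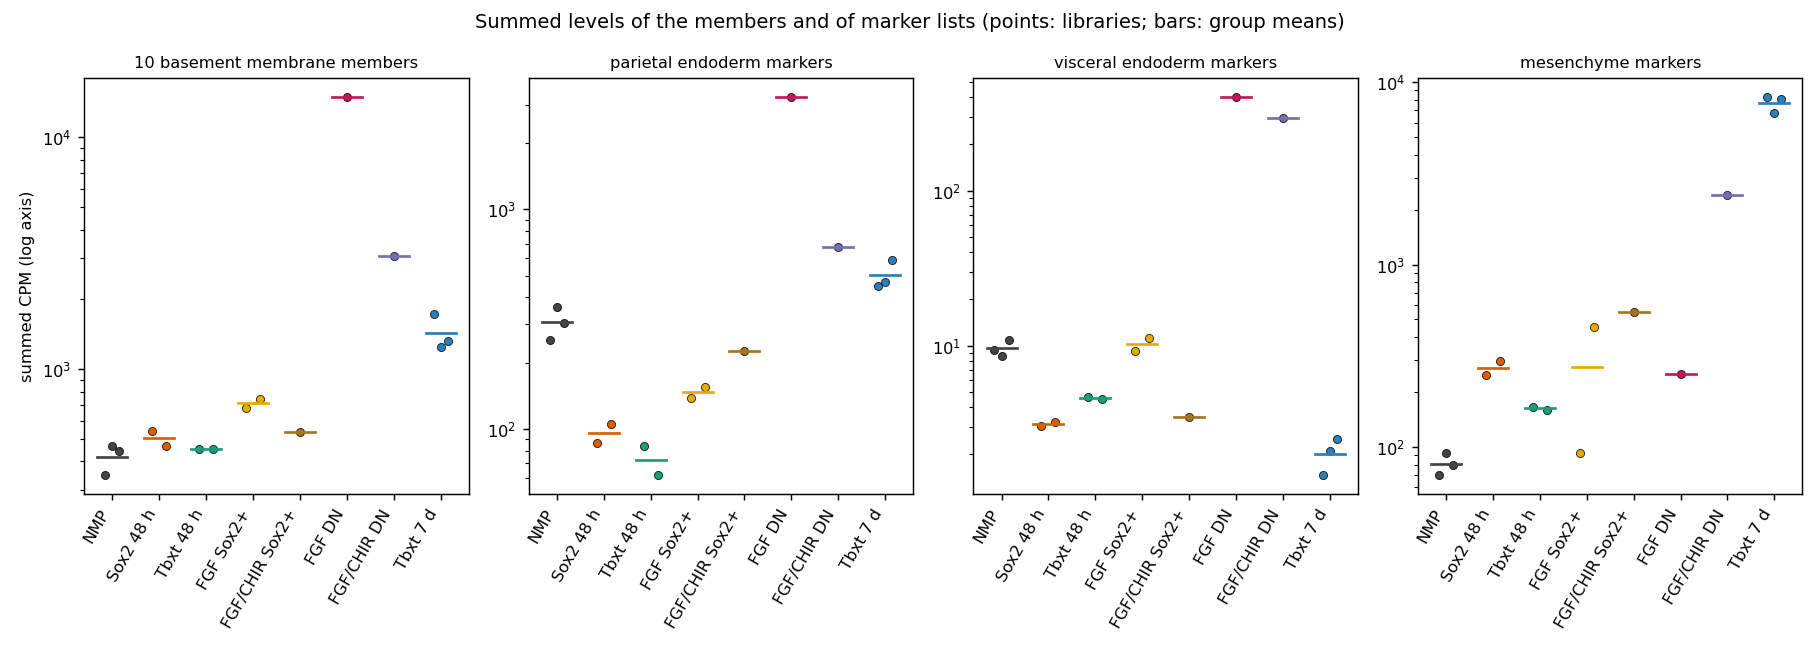
Summed CPM (vertical axes, log scale) of the 10 genes and of the parietal endoderm, visceral endoderm and mesenchyme marker lists by sorted group; points are libraries and bars are group means. The 10 genes and the parietal endoderm list are highest in FGF DN, the visceral endoderm list stands out in both Sox2-derived DN libraries, and the mesenchyme list is highest in Tbxt 7 d.

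Double-negative cells of the Tbxt route were compared with mCherry-positive and with double-negative cells of the Sox2 route. Against FGF Sox2+ cells, which differ from them in source, medium and gate, Tbxt 7 d cells were higher in 4 of 9 genes and lower in 2, where 21.1% of all genes were higher and 26.5% lower. Nid1 was higher by 2.63 ± 0.25, Sparc by 1.29 ± 0.22, Lamb1 by 1.18 ± 0.20 and Lamb2 by 1.03 ± 0.20 (adjusted p from 3.91e-06 to 0.00108). Lama5 was lower by -4.17 ± 0.41 (adjusted p = 6.56e-06) and Lamc1 by -0.95 ± 0.26 (adjusted p = 0.00865). Lama5 lay under the floor in Tbxt 7 d replicates 2 and 3. Its value ranged from -5.41 to -2.72 over the alternatives other than leave-one-out. The Lamc1 call was lost without FGF Sox2+ replicate 2, the shallow library (-0.55, adjusted p = 0.141), and in a fit of the compared groups alone (adjusted p = 0.0553), and Nid2 passed without Tbxt 7 d replicate 1 (0.57, adjusted p = 0.0124).

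Against FGF/CHIR DN, which shares medium, time and gate and differs in the sorted source, Tbxt 7 d cells were higher in 1 of 9 genes and lower in 6. Over all genes 7.88% were higher and 8.86% lower, and the medians were -1.32 for the 9 genes and 0.03 over all genes. Lama1 was lower by -3.60 ± 0.30 (adjusted p = 1.26e-05), Lama5 by -3.24 ± 0.51 (adjusted p = 0.00157), Lamc1 by -2.14 ± 0.32 (adjusted p = 0.00108), Hspg2 by -1.70 ± 0.42 (adjusted p = 0.0179), Lamb1 by -1.32 ± 0.26 (adjusted p = 0.00461) and Sparc by -1.17 ± 0.27 (adjusted p = 0.0123). The Lama5 value ranged from -4.435 to -1.907 over the alternatives other than leave-one-out. Lamb2 was higher by 0.92 ± 0.25 (adjusted p = 0.0268), a call lost without Tbxt 7 d replicate 2 (0.88, adjusted p = 0.0664) or 3 (0.90, adjusted p = 0.0686) and with a filter at 20 CPM (adjusted p = 0.0529). Nid1 passed with array weights (0.70, adjusted p = 0.0172). Both tested alpha chains and the gamma chain were thus lower in the Tbxt-derived cells, while Nid1 (0.69 ± 0.32, adjusted p = 0.156) did not pass. The extraembryonic endoderm and mesenchyme lists above also differ between these groups, and their part was not tested.

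**Figure D5:**
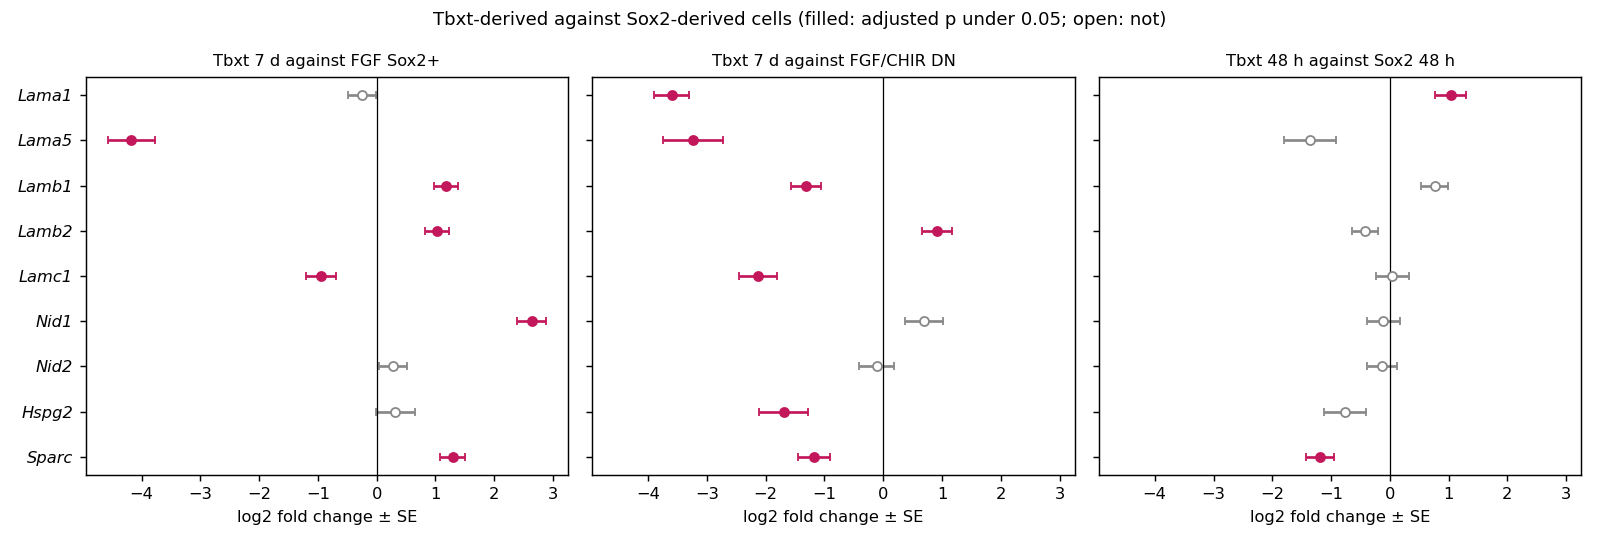
Log2 fold change ± SE of the 9 tested genes (horizontal axes, the same scale in all panels) for Tbxt 7 d against FGF Sox2+, Tbxt 7 d against FGF/CHIR DN, and Tbxt 48 h against Sox2 48 h; filled points passed an adjusted p of 0.05. Lama5 lies farthest to the left in the first panel (-4.17) and Lama1 in the second (-3.60), while Lama1 lies to the right in the third (1.03).

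Among laminin-like genes outside the 10, Lama2 and Ntn4 passed the filter on low values. Lama2, the alpha chain of muscle and mesenchyme, stood at 15.6, 6.04 and 9.35 CPM in Tbxt 7 d and at most 0.965 CPM elsewhere. Since it reached 5 CPM in Tbxt 7 d alone, it entered the test only through that group, and no test of it is given. Ntn4, which encodes netrin-4, a secreted protein that binds the gamma1 chain, stood at 29.3 CPM in FGF DN, 1.60 CPM in FGF/CHIR DN and at most 5.01 CPM elsewhere. Lama3, Lamb3 and Lamc3 stayed at or under 1.25 CPM in all libraries.

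The collagens of basement membranes, 8 genes with 5 tested, split in the DN comparison, with 2 higher, 1 lower and a median of -0.87, against 7.12%, 6.99% and -0.10 over all genes. Col4a1 and Col4a2, the chains of the common collagen IV trimer, stood at 2864 and 922 CPM in FGF DN, 516 and 241 CPM in FGF/CHIR DN, and 15.3 and 10.4 CPM in FGF/CHIR Sox2+. DN cells were higher by 5.42 ± 0.23 for Col4a1 (adjusted p = 9.26e-08) and 4.65 ± 0.22 for Col4a2 (adjusted p = 1.33e-07), and lower by -1.05 ± 0.18 for Col18a1 (adjusted p = 0.00163). The difference of the DN effects between media did not pass for Col4a1 (-0.86 ± 0.46) or Col4a2 (-0.47 ± 0.43). From Tbxt 48 h to Tbxt 7 d, Col4a1 rose by 2.21 ± 0.23 and Col4a2 by 2.29 ± 0.21 (adjusted p = 5.15e-06 and 2.14e-06).

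Genes for folding and crosslinking of matrix proteins passed both in the DN comparison and in the difference between media. In DN against Sox2+ cells 6 of 8 were higher and 0 lower (7.12% and 6.99% of all genes; median 2.17), among them the collagen prolyl hydroxylase genes P4ha2 (3.65 ± 0.23) and P4ha1 (2.37 ± 0.24), the lysyl oxidase-like gene Loxl2 (3.02 ± 0.36) and the lysyl hydroxylase gene Plod2 (2.53 ± 0.17). In the difference of the DN effects, 4 of 8 were lower and 0 higher (0.749% and 1.69% of all genes; median -2.50 against 0.04 over all genes): P4ha1 (-4.39 ± 0.48), P4ha2 (-2.97 ± 0.46), Plod2 (-2.71 ± 0.35) and Serpinh1 (-2.30 ± 0.32), which encodes the collagen chaperone HSP47. From Tbxt 48 h to Tbxt 7 d, 7 of 8 were higher (30.7% of all genes), and against FGF Sox2+ 8 of 8 were (21.1%). The 8 include Lox, which stood at 44.5, 6.14 and 26.9 CPM in Tbxt 7 d and at most 4.75 CPM elsewhere. It entered the test only through that group, so its part in these counts carries no information.

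Of 9 tested laminin receptors, 3 were higher in DN than in Sox2+ cells and 0 lower, against 7.12% and 6.99% of all genes (median 0.96). These were Itga3 (1.60 ± 0.29), an integrin subunit that binds laminins with the alpha5 chain, Sdc4 (1.58 ± 0.35), a syndecan, and Bcam (1.18 ± 0.32), a receptor of the alpha5 chain. Tbxt 7 d cells were lower than FGF/CHIR DN in 5 of 9 receptors (8.86% of all genes), with Itga3 at -3.77 ± 0.36 and Bcam at -3.05 ± 0.40, and higher in 1 (7.88%). In Tbxt 7 d, Itga3 (0.198 to 0.291 CPM) and Bcam (0.396 to 0.582 CPM) lay at or under the floor, so these sizes depend on the pseudocount. None of the 8 tested dystroglycan glycosylation genes, whose products let dystroglycan bind laminin, passed between DN and Sox2+ cells, where the median was 0.08. Of 9 tested proteases and inhibitors, 6 were higher in DN cells (7.12% of all genes; median 1.27), and 9 of 9 rose from Tbxt 48 h to Tbxt 7 d (30.7%). Of 12 other basement membrane glycoproteins, 0 were higher and 1 was lower in DN cells, against 7.12% and 6.99% (Frem2, -1.38; median -0.20), although Tinagl1, which encodes a matricellular glycoprotein, stood at 451 CPM in FGF DN, 40.0 CPM in FGF/CHIR DN, 108 and 33.8 CPM in FGF Sox2+ and 4.52 CPM in FGF/CHIR Sox2+.

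Likeness of pattern was measured as Pearson's r of log2(CPM + 1) over the 15 libraries, which share depth and group structure, and is given as a description. Among the 9 tested genes, Lama1 and Lamb1 had r = 0.88, Lama1 and Lamc1 0.85, and Lamb1 and Lamc1 0.84. Without the FGF DN and FGF/CHIR DN libraries, over 13 libraries, these became 0.32, 0.22 and -0.55, so the shared pattern of the 3 chains rested on those libraries. Nid1 and Sparc kept theirs (0.93 and 0.91), as did Lamb2 and Sparc (0.88 and 0.97), and Lama5 ran against Lamb2 (-0.75 and -0.86). Among tested genes with a group mean of at least 20 CPM, predicted genes left out, the closest to Lamb1 was P4ha2 (0.98, and 0.84 over 13 libraries). The closest to Lamc1 was Ttr (0.96, and 0.49), and to Lama1 it was Prlr, the prolactin receptor gene (0.91, and 0.56). Lama5 was closest to the glucose transporter gene Slc2a3 (0.99 in both), and Lamb2 to Anxa2 (0.97 in both). Nid1 was closest to Creb3l2 (0.98 in both), a transcription factor gene of the secretory pathway that was also among the 3 closest to Sparc (0.95, and 0.92). Hspg2 was closest to Furin (0.93 in both), Sparc to Chmp4b (0.95, and 0.93), and Nid2, the flattest of the 9, to Alg5 (0.87, and 0.79).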

How the data were processed

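Sorted mouse cells gave 15 RNA libraries in 8 groups. Per the labels' protocols, oligo-dT primers with a molecular identifier captured mRNA, and the cDNA was tagmented. STAR 2.7, SAMtools 1.21 and GRCm39 are named in the submitters' processing notes (annotation and counting: not given in the sources used here). Values deposited by the authors are CPM for 78409 rows. Rows without a gene name (21909) and ERCC spike-ins (92) were left out, and 627 rows sharing 311 symbols were summed.

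Whole reads were not recovered: 71.1 to 78.7% of nonzero values were whole multiples of the 1-read step within 0.01 reads. The test was limma-trend with robust moderation (limma 3.58.1, R 4.3.3), two-sided, on log2(CPM + 1), with 8 groups in 1 fit and 7 residual degrees of freedom. A gene needed 5 CPM or more in 2 or more libraries, which 12943 did, and p-values were adjusted by Benjamini-Hochberg within a comparison (threshold 0.05). The code was tested on simulated data. The 10 genes, the pathway and marker lists, and the comparisons were chosen with earlier results of these data known. All 10 genes were named, with the 3 closest genes by correlation considered for each, among genes with a group mean of at least 20 CPM, and up to 4 passing genes per pathway list. Intervals and the 3-read floor cover counting error only. Alternatives were other pseudocounts (0.25, 4), filters and scalings, array weights, fits of the compared groups alone, a replicate block and leaving out each replicate. Libraries of the groups without replicates were not left out. Python 3.11.15, pandas 2.3.3 and matplotlib 3.10.9 were used.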

Additional observations from a re-analysis of the deposited data

Results flagged for a closer look

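The gap between DN and Sox2+ cells differed between FGF/CHIR and FGF for 3 genes by a test of the difference itself (limma, adjusted over all tested genes). The difference of the log2 gaps was -3.61 for Lama1, -3.54 for Lamb1 and -3.655 for Lamc1, the chains of 1 laminin. FGF DN, FGF/CHIR DN and FGF/CHIR Sox2+ are single libraries, so the medium and the library cannot be told apart. The 3 genes passed in each of the alternatives run for this difference other than leave-one-out. Over the leave-one-out fits it lay between -3.95 and -3.27 for Lama1, -3.55 and -3.53 for Lamb1, and -4.05 and -3.26 for Lamc1. Those fits could not leave out FGF DN, FGF/CHIR DN or FGF/CHIR Sox2+, which have no replicate, so they do not test these libraries.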

How the results depend on the processing

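Over the 9 tested genes and 10 comparisons, 0 called values changed direction under any alternative. The alternatives other than leaving out a library gave 349 unchanged calls and 18 lost ones, and the leave-one-out fits 512 and 40, while 16 and 6 values passed only under an alternative. The number of genes called moved mainly at 48 h. For Tbxt 48 h against Sox2 48 h it went from 2 to 1 with a pseudocount of 0.25 or quantile normalization, to 0 without a filter, and to 4 with array weights or a fit of the compared groups alone, with 0 to 4 over the leave-one-out fits. For Tbxt 48 h against NMP it went from 4 to 2 without a filter or with quantile normalization, with 1 to 4 over the leave-one-out fits. For Sox2 48 h against NMP it went from 2 to 6 with array weights and to 4 with a fit of the compared groups alone. In the other 7 comparisons it stayed within 1.5 times.

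Values that reversed had not passed the test. With median-of-ratios scaling these were Lamc1 in FGF Sox2+ against Sox2 48 h (-0.048), and Lamb1 (-0.083) and Nid2 (-0.081) in Tbxt 7 d against Tbxt 48 h. With quantile normalization they were Lamc1 (-0.023) and Nid1 (0.085) in Tbxt 48 h against Sox2 48 h and Lamc1 (-0.0033) in FGF Sox2+ against Sox2 48 h. With array weights Nid2 in Tbxt 7 d against FGF/CHIR DN became 0.11. The cause was not tested. Leave-one-out values crossed 0 as follows. Against NMP, Sox2 48 h gave -0.22 to 0.0037 for Lamb1 and -0.0053 to 0.22 for Lamc1, and Tbxt 48 h gave -0.16 to 0.72 for Hspg2 and -0.085 to 0.34 for Sparc. Tbxt 48 h against Sox2 48 h gave -0.024 to 0.11 for Lamc1 and -0.29 to 0.032 for Nid2. FGF Sox2+ against Sox2 48 h gave -0.039 to 0.57 for Hspg2, -0.53 to 0.0995 for Lama5 and -0.27 to 0.52 for Lamc1. Tbxt 7 d against Tbxt 48 h gave -0.19 to 0.196 for Lamb1 and -0.15 to 0.302 for Nid2, and against FGF Sox2+ -0.59 to 0.088 for Lama1. Nid2 in Tbxt 7 d against FGF/CHIR DN gave -0.28 to 0.173, and the difference of the DN effects -0.075 to 0.54 for Hspg2.

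Replicate numbers did not pair the libraries throughout: over 21 same-numbered pairs r lay between -0.188 and 0.48, and 4 were over 0.1. These were NMP with Tbxt 48 h (0.48 for replicate 1 and 0.457 for replicate 2) and Sox2 48 h with FGF Sox2+ (0.201 for each). Where both groups hold 2 libraries, their deviations mirror each other, so the values for replicates 1 and 2 are the same. With the replicate block over numbered libraries, Tbxt 48 h against Sox2 48 h had 1 call instead of 2, without Lama1 (1.03, adjusted p = 0.083), and Tbxt 48 h against NMP 3 instead of 4, without Nid1 (-0.79, adjusted p = 0.079), and the other 4 comparisons fitted with it kept their number. Comparisons with groups of 1 library, which carry no number, were not fitted with the block. Under the block Lamb1 reversed in Sox2 48 h against NMP (0.058), as did Lamb1 (-0.127) and Nid2 (-0.075) in Tbxt 7 d against Tbxt 48 h. Median-of-ratios scaling moved the median of all genes by -0.16 in FGF Sox2+ against Sox2 48 h and by 0.11 in DN against Sox2+, and quantile normalization by -0.19 in the former and in Tbxt 7 d against Tbxt 48 h. Single libraries in 3 groups and the shallow FGF Sox2+ replicate 2 limit the precision.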
